A study of Mus musculus with 9 samples.

Results

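The nuclear genes for subunits of the mitochondrial respiratory chain and ATP synthase were followed in mouse breast cancer cells and in 2 knockout lines of the long noncoding RNA gene Malat1, of which KO2 kept part of the RNA. Members were chosen by a rule on the symbol, set with earlier results of these data known. The rule took names starting with Ndufa, Ndufb, Ndufc, Ndufs, Ndufv, Uqcr or Atp5, Sdha to Sdhd, and Cox4 to Cox8 followed by a letter. Assembly factors ("af" in the name) were left out. This gave 82 of the 19072 genes listed in the tables, with 35 in complex I, 4 in complex II, 8 in complex III, 18 in complex IV and 17 in complex V. Ndufa4 and Ndufa4l2 were placed in complex IV, and Atp5s and Atp5sl carry the Atp5 name without being ATP synthase subunits. The cells were 4T1-TGL, a line of the BALB/c mammary carcinoma 4T1, grown in DMEM/F12. The groups were 3 libraries of cells of wild-type Malat1 genotype (Ctrl) and 3 of each of 2 Malat1 knockout lines (KO1 and KO2), read from total RNA by paired-end sequencing. How each knockout was made, and whether each line is 1 clone, is not given in the sources used here. Since nothing in the labels says that the libraries of a group came from separate cultures, p-values here rest on library-to-library spread that may be only technical.

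Respiratory complexes sit in the inner mitochondrial membrane. Complex I takes electrons from NADH and complex II from succinate, both pass them to coenzyme Q, complex III hands them to cytochrome c, and complex IV gives them to oxygen. Complexes I, III and IV pump protons, and complex V lets the protons flow back through its membrane sector (Fo) to turn a rotor that drives ATP synthesis in its soluble head (F1). All of these except complex II mix nuclear subunits, made in the cytosol and imported, with a few subunits encoded in mitochondrial DNA. The nuclear genes are scattered over the genome, and factors such as NRF1, NRF2 (an ETS family complex that contains Gabpa), YY1 and the estrogen-related receptors (ERR) are known to act on many of them.

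Library totals ran from 30655924 to 35406395 expected counts, of which the members held between 0.653% (KO1 replicate 1) and 0.811% (KO2 replicate 1). Malat1 was at 510, 402 and 474 CPM (counts scaled to a common library size with TMM factors) in the Ctrl libraries, at 3.88, 3.69 and 2.63 in KO1, and at 119, 160 and 98.1 in KO2. The target was thus nearly lost in KO1 and reduced in KO2, with log2 fold changes of -7.08 ± 0.236 (SE; edgeR adjusted p = 2.55e-08) and -1.88 ± 0.178 (SE; edgeR adjusted p = 1.37e-05). Among 7 markers of carcinoma epithelium, the keratins Krt8 and Krt18 carried nearly all counts, and Epcam, Cdh1, Krt19, Cldn4 and Cldn7 had group means under 1 CPM; the summed level was 700 to 718 CPM in Ctrl, 1170 to 1400 in KO1 and 2116 to 2315 in KO2. Summed fibroblast markers, nearly all Pdgfra, lay at 294 to 303, 258 to 279 and 146 to 152 CPM. The list did not move as 1: the means of Dcn were 14.4, 6.0 and 0.168 CPM in Ctrl, KO1 and KO2, and those of Pi16 1.57, 5.67 and 6.99. Col3a1 and Lum had group means under 1 CPM. Markers of macrophages and neutrophils reached at most 41.1 CPM in sum, those of endothelium 15.6, those of T and NK cells 5.26, those of striated muscle 3.22 and those of adipocytes 1.87. The part of these shifts in the results below was not tested. In bulk samples of this cultured line and its knockout lines, fewer cells with a marker and less of its RNA per cell cannot be told apart.

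Of the 82 members, 76 were listed in all 9 libraries and the same 76 passed the filter on low counts. Those left out were the isoforms or paralogues Cox4i2, Cox6a2, Cox6b2, Cox7a1, Cox7b2 and Ndufa4l2, which had at most 18 expected counts in any library. Cox6a2, the heart and muscle form of subunit 6a, reached 18 in Ctrl replicate 2 and 17 in KO1 replicate 1 and no more than 5 elsewhere, while its general counterpart Cox6a1 lay between 95.0 and 138 CPM. The cells therefore listed the general forms of complex IV, and the muscle, lung and testis forms lay at or near 0.

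Levels per transcript length are given by FPKM (fragments scaled to transcript length and library size). In Ctrl, the highest members were the catalytic F1 subunit gene Atp5b, at 551 ± 10.2 FPKM, and Ndufb9, an accessory subunit of complex I, at 487 ± 10.8 (SD, n = 3). Ndufb9 stood apart within complex I, where the next were Ndufb8 at 135 ± 1.80 and Ndufa12 at 130 ± 5.62. The top genes of the other complexes were Cox6c at 308 ± 46.7, Cox6a1 at 252 ± 16.0 and Cox8a at 179 ± 8.31 in complex IV, Uqcrb at 258 ± 44.3, Uqcrc1 at 120 ± 1.62 and Uqcrh at 113 ± 20.4 in complex III, and Sdhb at 96.0 ± 3.77, Sdha at 73.1 ± 2.90 and Sdhc at 66.5 ± 2.97 in complex II. In complex V, Atp5c1 (304 ± 10.6) and Atp5a1 (262 ± 0.427), which encode the gamma and alpha subunits of F1, followed Atp5b.

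In KO2, 41 of 76 tested members were higher than in Ctrl and 2 were lower, and in KO1 2 were higher and 8 lower. These are 53.9% and 2.63% of the members in KO2, where 24.6% of all 13682 tested genes were called higher and 29.5% lower (54.1% in either direction). In KO1 they are 2.63% and 10.5%, beside 15.6% higher and 14.9% lower over all genes (30.5% in either direction). A gene was called at an edgeR adjusted p under 0.05. The median log2 fold change of the members was 0.25 in KO2 and -0.01 in KO1, and that of all tested genes -0.03 and 0.0. With total count scaling the calls in KO1 became 4 higher and 7 lower, and with upper quartile scaling 3 higher and 6 lower. All 41 members called higher in KO2 had every KO2 library above every Ctrl library. Over all 76 tested members 49 were separated in this way, and 5 in the lower direction. Over all tested genes the shares were 30.2% higher and 35.5% lower. Every called member was separated from the other group in each comparison, so the separation is no further support for the calls. Of the 41, 26 were called with each of the 9 libraries left out in turn. In KO1, 2 of the 8 lower calls (Uqcrc2 and Ndufb9) and neither higher call held in all 9.

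**Figure D1:**
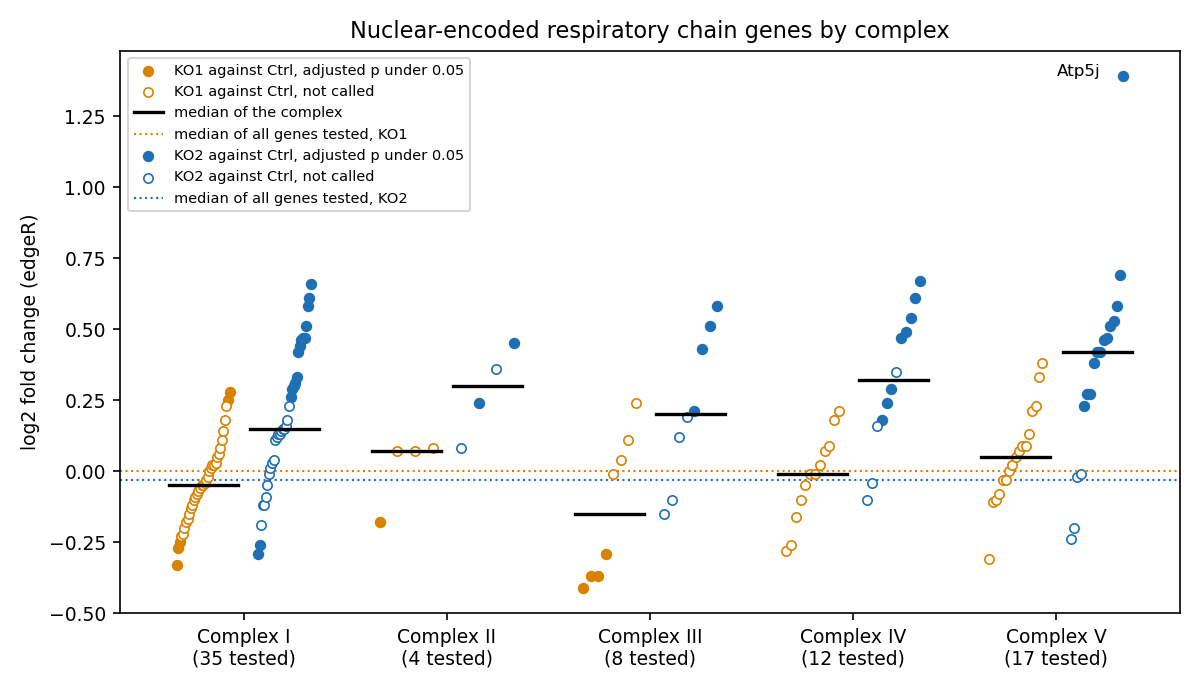
Log2 fold changes of the 76 tested members against Ctrl, by complex, for KO1 (orange) and KO2 (blue); filled points have an edgeR adjusted p under 0.05, black bars are medians of a complex and dotted lines medians of all genes tested. The blue points sit mostly above 0, up to Atp5j at 1.39, and the filled orange points below 0 lie in complexes I, II and III.

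By complex, the share of members called higher in KO2 went from 14 of 35 in complex I (median log2 fold change 0.15, and 0.07 with total count scaling or 0.08 with limma on FPKM) through 2 of 4 in complex II (0.30), 4 of 8 in complex III (0.20) and 8 of 12 in complex IV (0.32) to 13 of 17 in complex V (0.42). Both lower calls in KO2 were in complex I. The KO1 calls were 2 higher and 3 lower in complex I (median -0.05), 1 lower in complex II (0.07), 4 lower in complex III (-0.15), and none among the 12 tested genes of complex IV (-0.01) or the 17 of complex V (0.05). For complexes IV and V in KO1, edgeR gave 1 and 2 genes at an unadjusted p under 0.05, DESeq2 called none (over all genes 16.3% in each direction), and limma on FPKM called none in complex IV and 1 in complex V (over all genes 17.8% higher and 14.0% lower). Summed over all 82 members, the level was 119.3 ± 3.0% of the Ctrl mean in KO2 and 96.6 ± 7.3% in KO1 (SD, n = 3). In KO2 the sums stood at 123.1 ± 4.7% for complex V, 123.1 ± 1.4% for complex IV, 119.5 ± 3.6% for complex II, 114.6 ± 2.3% for complex I and 109.8 ± 3.6% for complex III. The KO1 sums lay between 90.5 ± 7.4% for complex III and 99.0 ± 12.5% for complex IV.

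**Figure D2:**
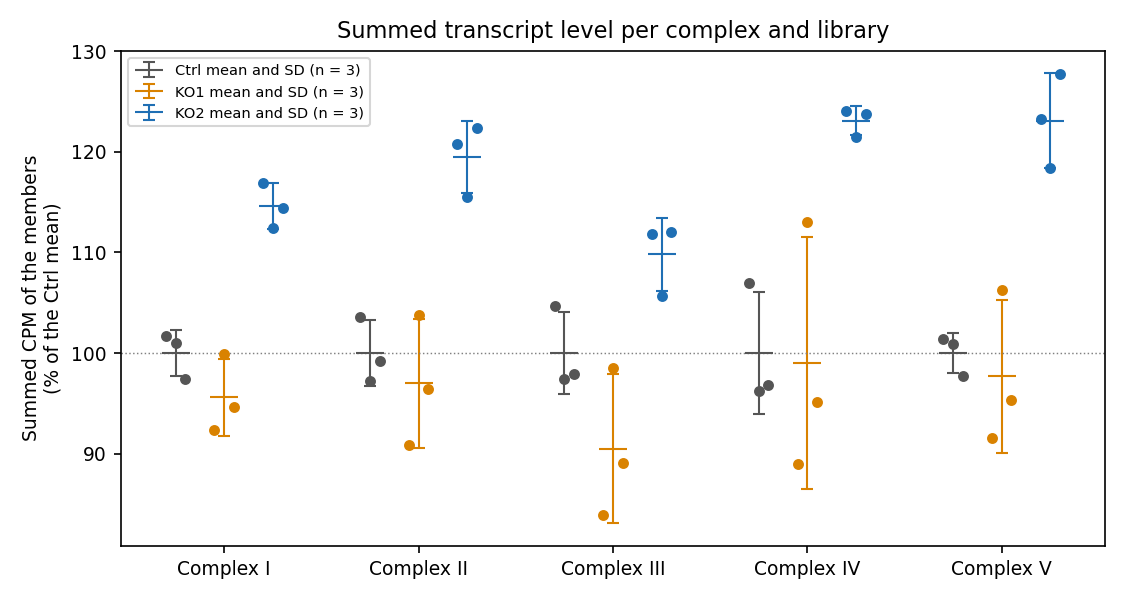
Summed TMM-scaled CPM of the members of each complex in each library (points), as a percentage of the Ctrl mean, with the mean and SD of 3 libraries. The KO2 libraries lie above those of Ctrl in each complex, and the KO1 libraries spread more widely, with replicate 2 the highest of them throughout.

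Taken across the lines, 1 member, Ndufb11, was called higher in both and 1, Ndufb6, lower in both. Ndufb9, Ndufs6 and Sdha were called lower in KO1 and higher in KO2. Another 37 members were called higher in KO2 without a call in KO1, the 4 complex III genes called lower in KO1 had no call in KO2, and 28 were called in neither line. Such joint counts were not made over all tested genes. They describe the members and do not show whether other genes would give the same pattern. Since both comparisons use the same Ctrl libraries, the lines were also compared directly: 37 members were higher in KO2 than in KO1 and 1, Ndufb4, was lower, with a median log2 difference of 0.27. These are 48.7% and 1.32% of the members. Over all tested genes 25.5% were higher and 29.5% lower in that comparison (55.0% in either direction). With total count scaling or limma on FPKM the median of the members was 0.16. In the first of these, that of all genes went from -0.02 to -0.13 and the calls over all genes were 2514 higher and 5023 lower, in place of 3495 and 4034. In complex I, the calls between the lines were 15 higher and 1 lower by edgeR and 7 higher and 3 lower by limma, which called 18.4% of all genes higher and 36.3% lower.

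Complex I has a catalytic core with nuclear-encoded and mitochondrially encoded subunits. Ndufs1, Ndufv1 and Ndufv2, which carry iron-sulfur clusters or the NADH site, were not called in either line, with log2 fold changes from -0.12 to 0.13 in KO2 and from -0.17 to -0.03 in KO1. Ndufs3, Ndufs7 and Ndufs8, also of the core, were called higher in KO2. Ndufs8, an iron-sulfur subunit, was at 22.2, 23.7 and 21.8 CPM in Ctrl, 19.5, 22.7 and 22.1 in KO1 and 28.9, 29.0 and 32.6 in KO2. Its KO2 libraries all lay above the other 6, at a log2 fold change of 0.42 ± 0.089 (SE; edgeR adjusted p = 0.00213). Ndufs3 changed by 0.26 ± 0.0676 (SE; adjusted p = 0.00705) and Ndufs7, which sits next to the quinone site, by 0.31 ± 0.113 (SE; adjusted p = 0.0368), a call that was lost without Ctrl replicate 1 (adjusted p = 0.129) and 4 other libraries, up to 0.153 without KO2 replicate 3.

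Of the 28 accessory subunits of complex I, which surround the core and are needed for its assembly and stability, 11 were higher and 2 lower in KO2. The largest changes were in Ndufa2 (0.66), Ndufa8 (0.61) and Ndufb2 (0.58), all on the log2 scale. The other 8 were Ndufb7 (0.51), Ndufb3 (0.47), Ndufb11 (0.47), Ndufb9 (0.46), Ndufs6 (0.44), Ndufb5 (0.33), Ndufa11 (0.30) and Ndufa13 (0.29), and the 15 accessory genes without a call in KO2 ran from -0.19 (Ndufv3) to 0.23 (Ndufa5). With a library left out, the KO2 calls of Ndufa11, Ndufb3 and Ndufa13 were lost in 4, 3 and 1 of the 9 fits, up to adjusted p-values of 0.123 (Ndufa11) and 0.0532 (Ndufa13, both when KO2 replicate 3 was left out) and 0.0633 (Ndufb3, Ctrl replicate 2). Ndufa2, of the matrix arm, was at 25.5, 24.2 and 23.9 CPM in Ctrl, 26.4, 30.5 and 26.3 in KO1 and 39.0, 37.8 and 39.5 in KO2. Its KO1 libraries lay slightly above Ctrl without a call (adjusted p = 0.118), and its KO2 libraries far above both (SE 0.0799; edgeR adjusted p = 4.07e-05). Ndufa8, an accessory subunit on the intermembrane side, was at 54.4, 51.8 and 52.4 CPM in Ctrl, 42.4, 49.2 and 44.7 in KO1 and 84.2, 73.6 and 84.1 in KO2. The KO2 libraries were the highest and did not overlap with the others, at a log2 fold change of 0.61 ± 0.0798 (SE; edgeR adjusted p = 7.88e-05). Ndufb11, an X-linked accessory subunit, was at 45.4, 50.8 and 49.2 CPM in Ctrl, 54.7, 64.3 and 57.3 in KO1 and 65.3, 66.2 and 70.3 in KO2. Its groups lay in that order without overlap, with log2 fold changes of 0.28 in KO1 (edgeR adjusted p = 0.0208) and 0.47 in KO2 (adjusted p = 0.000469); the KO1 call was lost without Ctrl replicate 1 (adjusted p = 0.0819), Ctrl replicate 3 (0.0547) or KO1 replicate 2 (0.0644). Ndufa7, the other member higher in KO1, had 0.25 there (adjusted p = 0.0325) and 0.15 in KO2 (adjusted p = 0.126), and its KO1 call was lost in 6 of the 9 fits with a library left out, up to an adjusted p of 0.12 without Ctrl replicate 1.

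The abundant Ndufb9 moved in opposite directions in the lines. It was at 291, 296 and 279 CPM in Ctrl, 243, 245 and 239 in KO1, and 415, 403 and 372 in KO2. No library of any group reached into the range of another. KO1 had a log2 fold change of -0.25 ± 0.0623 (SE; edgeR adjusted p = 0.00973), and KO2 had 0.46 ± 0.0623 (SE; adjusted p = 0.000104). Ndufs6, a zinc-binding accessory subunit, followed the same order, at 46.9, 45.3 and 41.7 CPM in Ctrl, 31.9, 37.5 and 37.2 in KO1 and 64.1, 59.2 and 58.1 in KO2. Its log2 fold changes were -0.33 ± 0.0848 (SE; edgeR adjusted p = 0.0127, and 0.0504 without Ctrl replicate 1) and 0.44 ± 0.0843 (SE; adjusted p = 0.00114).

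Ndufb6, an accessory subunit of the membrane arm, was at 23.9, 21.5 and 22.0 CPM in Ctrl, 18.6, 19.4 and 17.9 in KO1 and 18.4, 17.9 and 18.9 in KO2. All 6 knockout libraries lay below the Ctrl libraries, at a log2 fold change of -0.27 ± 0.0806 for KO1 (SE; edgeR adjusted p = 0.0261) and -0.29 ± 0.0809 for KO2 (SE; adjusted p = 0.0113). The KO1 call was lost without Ctrl replicate 1 (adjusted p = 0.0954), Ctrl replicate 3 (0.0576) or KO1 replicate 3 (0.101). Ndufb4, of the same arm, was at 37.4, 41.0 and 36.7 CPM in Ctrl, 38.3, 40.7 and 38.9 in KO1 and 34.3, 31.2 and 30.4 in KO2. The KO2 libraries were the lowest here, at a log2 fold change of -0.26 ± 0.0778 (SE; adjusted p = 0.014), which missed the threshold when Ctrl replicate 2 (0.052), KO2 replicate 2 (0.0505) or KO2 replicate 3 (0.0608) was left out. Ndufa1, Ndufa3, Ndufab1 (the mitochondrial acyl carrier protein), Ndufb8, Ndufc1 and Ndufc2 were among the 28 members called in neither line, with KO2 log2 fold changes from -0.12 to 0.13.

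In complex II, succinate dehydrogenase, the flavoprotein subunit gene Sdha was at 212, 197 and 202 CPM in Ctrl, 170, 187 and 180 in KO1 and 243, 233 and 243 in KO2. The 3 groups did not overlap, and the log2 fold change was 0.24 ± 0.0624 in KO2 (SE; edgeR adjusted p = 0.00783). In KO1 it was -0.18 ± 0.0624 (SE; adjusted p = 0.0445), close to the threshold, and it missed the threshold without any of 7 libraries in turn (adjusted p 0.0582 to 0.135). The membrane anchor gene Sdhc was at 75.2, 71.1 and 76.3 CPM in Ctrl, 68.7, 90.0 and 75.1 in KO1 and 102, 98.1 and 105 in KO2, and only the KO2 libraries stood clear of Ctrl (0.45 ± 0.092, SE; adjusted p = 0.00168). Sdhb, the iron-sulfur subunit, had log2 fold changes of 0.07 and 0.08, and the anchor Sdhd 0.08 in KO1 and 0.36 in KO2 (adjusted p = 0.0582).

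Complex III was the complex with the largest share of lower calls in KO1, 4 of 8, and none of these 4 was called in KO2. Uqcrc2, a core protein of the matrix side, was at 163, 169 and 155 CPM in Ctrl, 128, 129 and 119 in KO1 and 149.6, 140.9 and 148.6 in KO2. The KO1 libraries lay below all others, at a log2 fold change of -0.37 ± 0.0644 (SE; edgeR adjusted p = 0.00118), and KO2 had -0.15 (adjusted p = 0.0645). Uqcrq, a small subunit near the quinone site, was at 32.7, 40.3 and 30.2 CPM in Ctrl, 25.4, 28.6 and 23.8 in KO1 and 40.6, 35.1 and 41.7 in KO2. Its KO1 libraries were again the lowest, at -0.41 ± 0.119 (SE; edgeR adjusted p = 0.0232), which missed the threshold without Ctrl replicate 2 (0.0812) or KO1 replicate 3 (0.0951), and Ctrl replicate 2 reached into the KO2 range. The Rieske iron-sulfur protein gene Uqcrfs1 was at 60.8, 57.9 and 61.0 CPM in Ctrl, 45.5, 56.6 and 44.5 in KO1 and 63.2, 63.4 and 68.9 in KO2. Here KO1 replicate 2 came close to Ctrl (-0.29 ± 0.0927, SE; adjusted p = 0.033), and the call was lost in 5 of the 9 fits with a library left out (adjusted p 0.0507 without KO2 replicate 1 to 0.133 without KO1 replicate 3). Uqcrb, a quinone-binding subunit, had -0.37 ± 0.11 in KO1 (SE, edgeR adjusted p = 0.0251), with a high Ctrl replicate 1 at 136 CPM beside 98.4 and 109.8. Without that library the value was -0.23 (adjusted p = 0.0853). The call was also lost without KO1 replicate 1 (0.053) or KO1 replicate 2 (0.0652).

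The genes of complex III that were called higher in KO2 were other ones: Uqcrh (0.58), Uqcr10 (0.51), Uqcr11 (0.43) and the core protein gene Uqcrc1 (0.21). Uqcr10 was at 31.9, 27.8 and 31.6 CPM in Ctrl, 30.5, 35.4 and 32.9 in KO1 and 43.2, 42.8 and 43.9 in KO2, with KO2 above all others (SE 0.082; edgeR adjusted p = 0.00036). Uqcrh, the acidic hinge protein that helps cytochrome c dock, was at 65.8, 46.1 and 59.1 CPM in Ctrl, 50.5, 88.9 and 62.9 in KO1 and 83.9, 89.1 and 82.0 in KO2. KO2 stood above Ctrl, and KO1 replicate 2 was as high as KO2 (SE 0.19; adjusted p = 0.0269). The calls of Uqcrh and Uqcrc1 were lost in 5 and 6 of the 9 fits with a library left out, up to adjusted p-values of 0.0902 (without Ctrl replicate 2) and 0.138 (without KO2 replicate 3), and that of Uqcr11 without Ctrl replicate 2 (0.0516).

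Complex IV had 12 tested members, and 8 were called higher in KO2: Cox7a2 (0.67), Cox7b (0.61), Cox7c (0.54), Ndufa4 (0.49), Cox8a (0.47), Cox7a2l (0.29), Cox5b (0.24) and Cox4i1 (0.18). The small membrane subunits of the Cox7 and Cox8 families had larger values than Cox4i1 and Cox5b, while Cox5a (-0.10), Cox6c (-0.04), Cox6a1 (0.16) and Cox6b1 (0.35) were not called. Cox7a2 was at 56.1, 38.6 and 46.5 CPM in Ctrl, 35.9, 62.4 and 45.1 in KO1 and 71.8, 75.9 and 76.6 in KO2. Its KO2 libraries were close together and above all others, while Ctrl and KO1 overlapped and spread widely (0.67 ± 0.188 in KO2, SE; edgeR adjusted p = 0.013). Cox7c was at 63.4, 54.8 and 54.8 CPM in Ctrl, 43.5, 55.0 and 46.5 in KO1 and 86.3, 82.4 and 83.6 in KO2 (0.54 ± 0.0941, SE; adjusted p = 0.000574). Here too KO2 stood clear, and KO1 reached into the Ctrl range with 1 library. Cox7a2l, a relative of Cox7a2 that takes part in joining complexes III and IV into supercomplexes, was at 173, 197 and 174 CPM in Ctrl, 185, 183 and 173 in KO1 and 228, 219 and 219 in KO2 (0.29 ± 0.0686, SE; adjusted p = 0.00396). The calls of Cox7b, Cox5b, Cox4i1 and Ndufa4 were lost in 5, 7, 4 and 3 of the 9 fits with a library left out. The highest adjusted p was 0.0696 for Cox7b and 0.0662 for Ndufa4 when Ctrl replicate 2 was left out, and 0.133 for Cox5b and 0.13 for Cox4i1 when it was Ctrl replicate 3.

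Complex V had the highest share of calls in KO2. Its 13 higher genes include Atp5s (0.42; edgeR adjusted p = 0.0113), which encodes coupling factor B, while Atp5sl was not called (-0.24; adjusted p = 0.184). In the F1 head, Atp5a1, Atp5c1, Atp5d (0.27) and Atp5e (0.46) were higher and the most abundant gene, Atp5b, was not called; the call of Atp5d was lost in 5 of the 9 fits with a library left out (up to adjusted p = 0.151 without KO2 replicate 3). Atp5c1, the gamma subunit that forms the rotating shaft, was at 353, 333 and 333 CPM in Ctrl, 322, 354 and 323 in KO1 and 521, 492 and 512 in KO2. The KO2 libraries stood far above the other 6, at a log2 fold change of 0.58 ± 0.0638 (SE; edgeR adjusted p = 1.99e-05). Atp5b, the catalytic beta subunit, was at 994.5, 1025 and 973 CPM in Ctrl, 888, 971 and 915 in KO1 and 1002, 928 and 1044 in KO2, with overlapping Ctrl and KO2 groups (-0.01 ± 0.0667, SE; adjusted p = 0.924). Atp5a1, the alpha subunit that alternates with beta around the head, rose from 622 ± 5.63 to 832 ± 42.1 CPM (SD, n = 3; 0.42 ± 0.0688, SE; edgeR adjusted p = 0.00039). In CPM the mean of Atp5b against that of Atp5a1 is not a subunit ratio, since the transcripts differ in length.

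The membrane sector of ATP synthase holds a ring of c subunits, and 3 genes, Atp5g1, Atp5g2 and Atp5g3, encode the same mature c protein. Atp5g3 was at 119, 89.1 and 102 CPM in Ctrl, 97.1, 148 and 113 in KO1 and 153, 168 and 178 in KO2, with KO2 above every other library (0.69 ± 0.15, SE; edgeR adjusted p = 0.00302). Atp5g1 was at 40.1, 37.5 and 34.2 CPM in Ctrl, 31.5, 47.3 and 40.4 in KO1 and 53.4, 50.9 and 57.8 in KO2, again with KO2 apart (0.53 ± 0.129, SE; adjusted p = 0.00489). Atp5g2 did not follow them, at 26.1, 68.3 and 36.3 CPM in Ctrl, 51.9, 86.0 and 32.9 in KO1 and 31.7, 41.6 and 40.6 in KO2. Its spread within groups was the widest of the tested members (coefficient of variation 50.5% in Ctrl and 47.2% in KO1) and its log2 fold change in KO2 was -0.20 ± 0.427 (SE; adjusted p = 0.716). Reads shared between such paralogues may be split by the counting, so the division among the 3 genes is uncertain. The small Fo subunits Atp5j2 (0.38), Atp5k (0.51) and Atp5l (0.47) were also called higher in KO2, Atp5k with losses in 5 of the 9 fits (up to adjusted p = 0.0845 without Ctrl replicate 2).

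**Figure D3:**
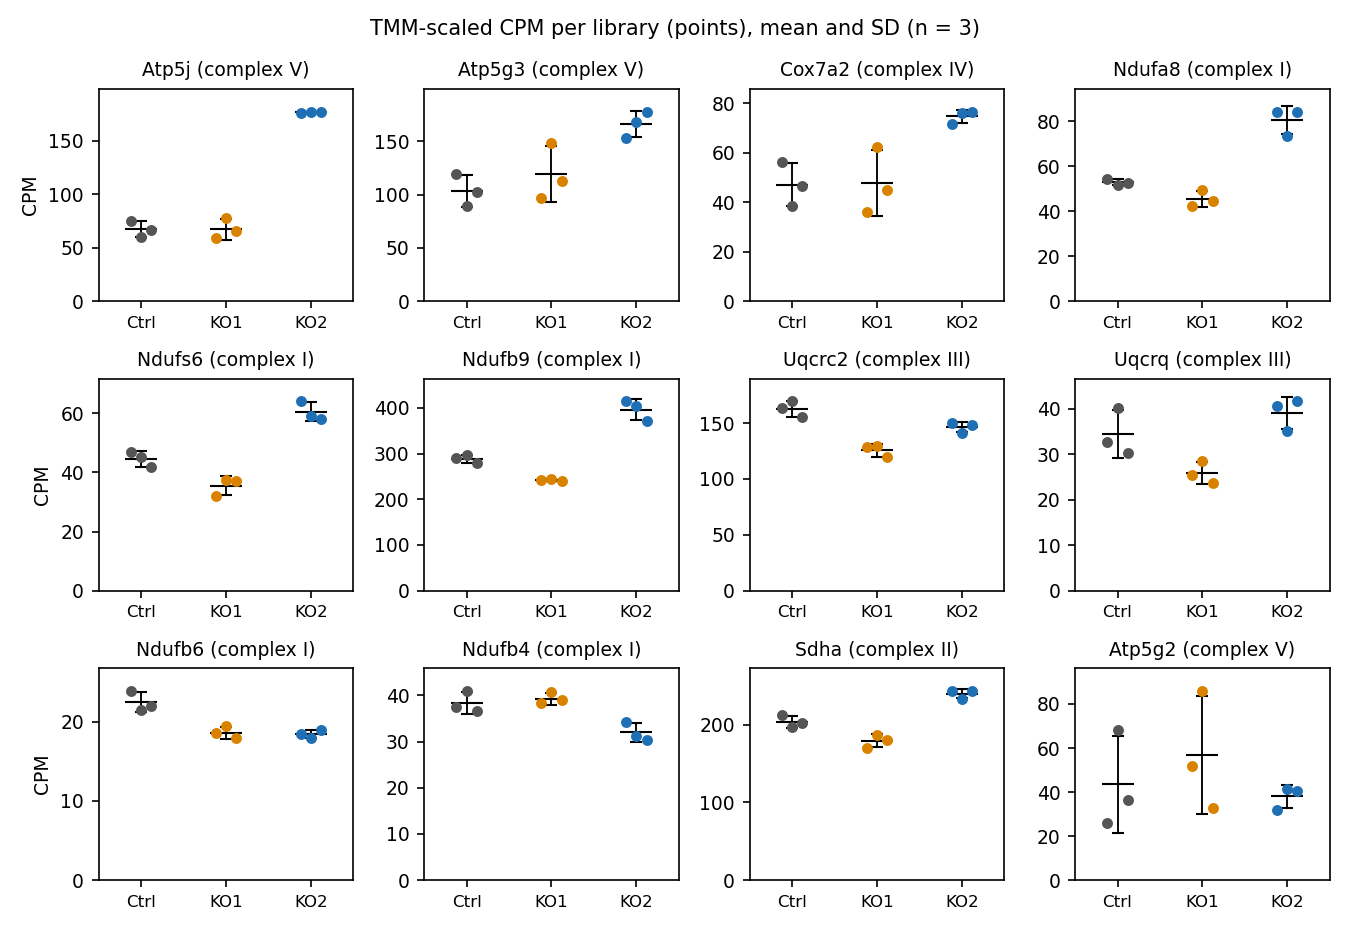
TMM-scaled CPM of 12 members in each library (points) with the mean and SD of 3 libraries; each axis starts at 0. KO2 stands clear of Ctrl in Atp5j, Atp5g3, Cox7a2, Ndufa8, Ndufs6, Ndufb9 and Sdha, both lines lie below Ctrl in Ndufb6, and the libraries of Ctrl and KO1 spread widely in Atp5g2.

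The peripheral stalk keeps the F1 head from turning with the rotor. Atp5j, which encodes its coupling factor 6, had the largest change of any member: 75.0, 60.4 and 66.3 CPM in Ctrl, 58.6, 77.3 and 65.3 in KO1 and 176, 176 and 177 in KO2. KO1 and Ctrl covered the same range and KO2 lay 2.63-fold above Ctrl, a log2 fold change of 1.39 ± 0.105 (SE; edgeR adjusted p = 9.77e-07; 1.32 to 1.48 with a library left out). The other stalk genes had smaller values: 0.27 for Atp5o (OSCP; adjusted p = 0.0136, and 0.0582 without KO2 replicate 3), 0.23 for Atp5h (subunit d; adjusted p = 0.0127, and 0.0552 without KO2 replicate 1) and -0.02 for Atp5f1 (subunit b; adjusted p = 0.848). Atp5j lies on chromosome 16 (84827871 to 84835857, GRCm38), and its 5' end overlaps that of Gabpa, which is read in the opposite direction (84834891 to 84863783). Whether the counting used the strand is not given in the sources used here, so reads in the overlap cannot be told apart and the values of both genes carry that uncertainty.

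Genes around Atp5j also differed in KO2. Within 500 kb on either side, a window chosen after the values were seen, 7 genes including Atp5j were tested and 5 were called higher in KO2: Mir155hg (0.76), Mrpl39 (0.79), Atp5j, Gabpa (0.69) and App (1.06). Of all tested genes on chromosome 16, 37.3% were called higher in KO2, and of all tested genes 24.6%. Mir155hg was low, at a mean of 1.66 CPM in Ctrl and 2.81 in KO2. Jam2 (0.76; edgeR adjusted p = 0.167) and Gm10791 (0.44; adjusted p = 0.389) had low counts and were not called. In KO1, Mir155hg (-0.86) and Mrpl39 (-0.28) were lower, App was higher (0.25), and Gabpa was not called (-0.14). Gabpa, the DNA-binding subunit of NRF2, was at 141 ± 1.86 CPM in Ctrl, 128 ± 10.1 in KO1 and 228 ± 1.07 in KO2 (SD, n = 3). The part of the neighbourhood in the value of Atp5j was not tested.

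**Figure D4:**
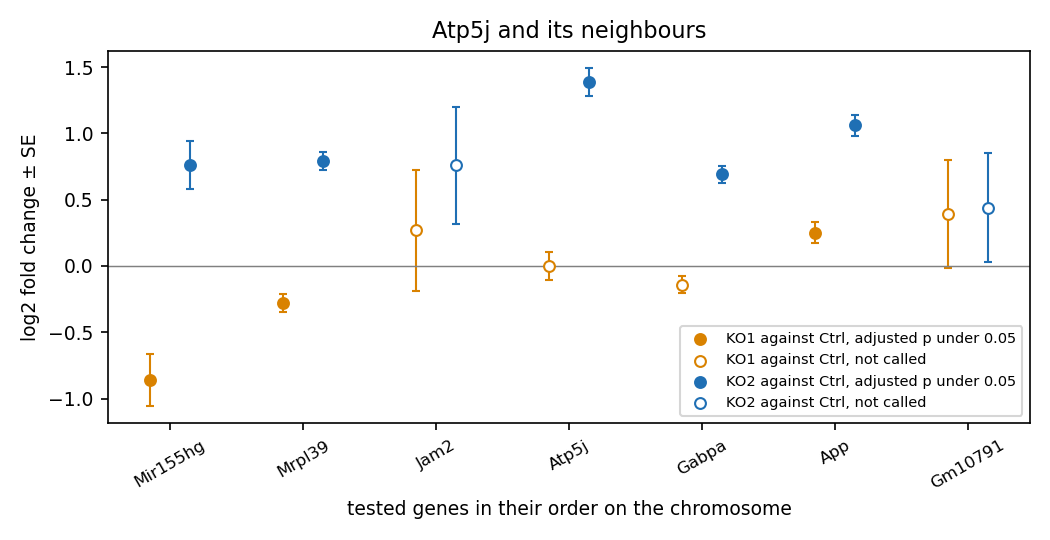
Log2 fold changes with SE of the 7 tested genes within 500 kb of Atp5j, in chromosome order, for KO1 (orange) and KO2 (blue); filled points have an edgeR adjusted p under 0.05. In KO2 the values of all 7 lie above 0, with Atp5j (1.39) and App (1.06) highest.

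Promoter stretches are shown because many members were higher together in KO2 and the factors known to act on them bind near the start sites. RefSeq promoters (GRCm38.p6; 250 bases before to 50 after the start) were matched for 68 of the 82 members. They were searched on both strands for 4 motifs, each counted on its own even where bases are shared: ETS (CCGGAAG, or CTTCCGG on the other strand), NRF1 (the half-site GCGCA followed by its reverse complement TGCGC), YY1 (AAGATGGCG, or CGCCATCTT) and ERR (TCAAGGTCA, or TGACCTTGA). The ETS letters were in 16 of 68 member promoters (23.5%) and in 9.93% of all 27025 genes in the table, a gene with several start sites being counted if any of its promoters held them. YY1 letters were in 8 (11.8%, against 1.64%), NRF1 letters in 5 (7.35%, against 1.07%) and ERR letters in 2 (2.94%, against 0.466%). Of the 36 members with a promoter that were called higher in KO2, 11 held the ETS letters, as did 5 of the 29 other tested members. For YY1 the counts were 4 of the 36 and 4 of the 29, for NRF1 3 and 2, and for ERR 1 and 1. The difference was not tested for any motif. All of these are matches of letters and not sites shown to be bound. The 27025 genes were not limited to those tested here. Whether the shares of the members exceed those of expressed genes in general was not tested.

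The table gives 2 start sites for Atp5j. Upstream of the one nearer to Gabpa (84834976), inside the annotated span of the gene, the letters around an ETS match (chr16:84835022-84835045, minus strand) and a YY1 match (chr16:84835048-84835071, minus strand) are given, 55 and 80 bases from that start site, with the matches in capitals.
Atp5j ETS: tgagggacCCGGAAGcacttaccc
Atp5j YY1: tgtaggaAAGATGGCGgagtctta

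The stretches upstream of 4 further start sites, all on the minus strand and written 5' to 3' in the direction of the gene, show the same kinds of match in genes with different values. Atp5g3 (chr2:73911327-73911576; 0.69 in KO2) holds an ERR match 44 bases from the start site, and Uqcrh (chr4:116075072-116075268; 0.58) and Atp5e (chr2:174464106-174464351; 0.46) hold an ETS match 4 and 96 bases from it. Ndufb6 (chr4:40279422-40279671), which was lower in both lines, also holds ETS letters, at 226 bases. Capitals mark the matches.
Atp5g3: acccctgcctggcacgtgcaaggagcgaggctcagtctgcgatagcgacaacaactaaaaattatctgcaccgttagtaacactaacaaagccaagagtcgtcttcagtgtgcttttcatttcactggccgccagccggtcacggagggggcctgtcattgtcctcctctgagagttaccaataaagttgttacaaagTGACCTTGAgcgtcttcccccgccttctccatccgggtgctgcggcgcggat
Uqcrh: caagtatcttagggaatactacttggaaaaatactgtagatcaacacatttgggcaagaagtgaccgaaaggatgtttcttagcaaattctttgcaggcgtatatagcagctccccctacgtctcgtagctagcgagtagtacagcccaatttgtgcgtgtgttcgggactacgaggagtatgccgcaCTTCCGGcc
Atp5e: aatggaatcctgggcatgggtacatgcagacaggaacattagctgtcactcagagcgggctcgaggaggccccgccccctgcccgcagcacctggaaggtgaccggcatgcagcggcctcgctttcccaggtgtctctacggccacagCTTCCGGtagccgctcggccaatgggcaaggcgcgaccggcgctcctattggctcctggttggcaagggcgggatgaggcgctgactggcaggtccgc
Ndufb6: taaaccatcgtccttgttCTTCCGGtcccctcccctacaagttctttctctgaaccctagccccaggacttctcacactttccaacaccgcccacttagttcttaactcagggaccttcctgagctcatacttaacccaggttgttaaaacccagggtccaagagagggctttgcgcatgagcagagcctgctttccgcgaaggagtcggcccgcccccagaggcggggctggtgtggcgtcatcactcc

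The members also varied together between libraries of 1 group. In KO1, replicate 2 was the highest library for 63 of 76 tested members and replicate 1 the lowest for 52, while over all tested genes replicate 2 was the highest for 40.0% and replicate 1 the lowest for 39.9%. In Ctrl, replicate 1 was the highest for 47 of the 76. The summed level of all members was 90.6% of the Ctrl mean in KO1 replicate 1, 104.7% in replicate 2 and 94.5% in replicate 3, a wider range than the 115.9% to 121.7% in KO2. Without KO1 replicate 2, the KO1 calls were 0 higher and 12 lower, and without KO1 replicate 1 4 higher and 6 lower.

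Member transcripts are short, with a median length of 724 bases against 2850 for all tested genes. Among the 10 members under 500 bases, the median deviation from the group mean was -0.17 in KO1 replicate 1 and 0.19 in KO1 replicate 2 (log2), and among all 181 tested genes of that length -0.03 and 0.05. The members' values in these libraries were -0.10 and 0.13 from 500 to 1000 bases (all genes -0.05 and 0.05), -0.05 and 0.08 from 1000 to 2000 bases (-0.02 and 0.02), and -0.09 and 0.08 for the 4 members over 2000 bases (0.01 and -0.01). In every length class the median of the members was below 0 in replicate 1 and above 0 in replicate 2. The medians of all genes had the same signs, at smaller size, in each class under 2000 bases, and lay near 0 over 2000 bases. The counts called higher in KO2, beside the share of all tested genes of the same length, were 7 of 10 under 500 bases (24.3% of all genes of that length), 24 of 42 from 500 to 1000 bases (28.0%), 7 of 20 from 1000 to 2000 bases (24.3%) and 3 of 4 over 2000 bases (24.4%). The part of length in the KO1 and KO2 values was not tested.

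Chromosome-wide shifts were seen beside some members. In KO1 the medians of all tested genes were lowest on chromosomes 12 (-0.37), 13 (-0.20) and 7 (-0.18), and 5 of the 8 members called lower in KO1 lie on chromosome 13 (Uqcrb, Uqcrfs1, Ndufs6 and Sdha) or 7 (Uqcrc2). Chromosomes 13 and 7 carry 6 tested members each, out of 76, and the rest of these had no lower call in KO1. Over all tested genes 14.9% were called lower in KO1. Atp5s, the 1 tested member on chromosome 12, was at 0.33 in KO1 (adjusted p = 0.0523). The other 3 members called lower in KO1, Uqcrq, Ndufb9 and Ndufb6, lie on chromosomes 11, 15 and 4, with medians of 0.05, 0.03 and 0.04. In KO2 the lowest median was that of chromosome 4 (-0.33), which carries Ndufb6 (-0.29), Sdhb (0.08) and Uqcrh (0.58), and the highest were those of chromosomes 18 (0.22), 11 (0.16) and 2 (0.14). With the median of its chromosome subtracted from each member, an alternative chosen after seeing the data, the median of complex III in KO1 was -0.06 in place of -0.15, and the KO2 medians lay between 0.22 (complex I) and 0.43 (complex II). The part of these chromosome shifts in the members' values was not tested.

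**Figure D5:**
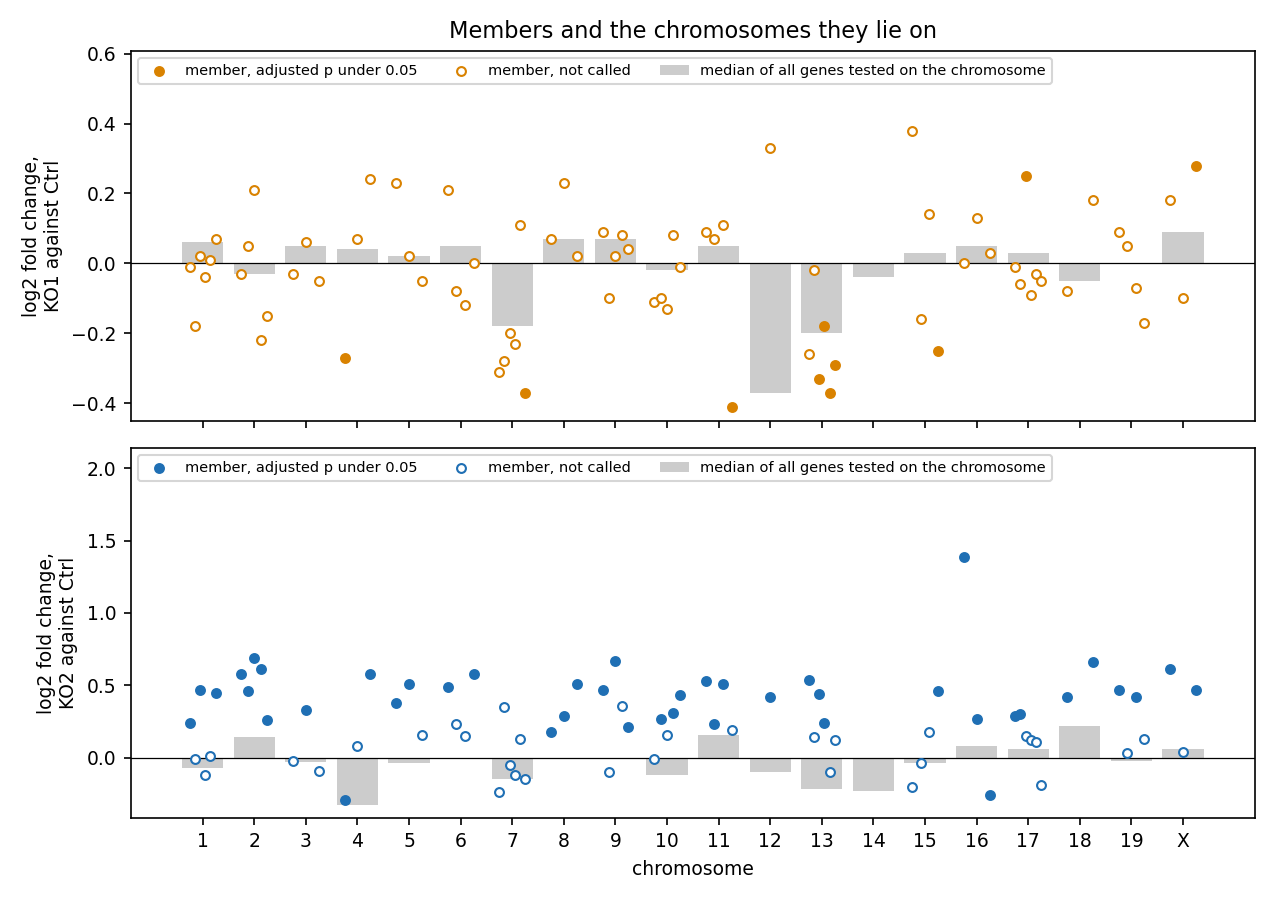
Log2 fold changes of the 76 tested members by chromosome, for KO1 (top) and KO2 (bottom), over grey bars for the median of all genes tested on that chromosome; filled points have an edgeR adjusted p under 0.05. In KO1, the filled points of chromosomes 7 and 13 lie over bars below 0, and in KO2 filled points above 0 occur on most chromosomes.

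Other genes of oxidative metabolism were counted in KO2 in the same way, beside the 24.6% higher and 29.5% lower over all tested genes. Assembly factors, which help build the complexes, had 10 higher (20.4%) and 9 lower (18.4%) of 49 tested (median log2 fold change 0.04), with Cox20 (0.67) and Cmc2 (0.46) higher and Sdhaf1 (-1.10) and Ndufaf4 (-1.04) lower. Electron carriers and coenzyme Q genes had 4 in each direction (21.1%) of 19 (-0.16), among them Coq3 (0.65) and Coq10b (-1.62). The TCA cycle and pyruvate entry list had 4 higher (16.7%) and 8 lower (33.3%) of 24 (-0.05), with the isocitrate dehydrogenase subunits Idh3b (0.68) and Idh3g (0.51) higher and the pyruvate carrier subunit Mpc1 (-0.78) and the kinase Pdk3 (-0.81) lower. Import and cristae genes had 6 in each direction (18.8%) of 32 (0.02), with the receptor Tomm70a (0.89) and prohibitin Phb (0.61) higher. Mitochondrial ribosome genes, whose products translate the mitochondrially encoded subunits, had 21 higher (27.3%) and 7 lower (9.09%) of 77 (0.09), led by Mrps6 (1.32), Mrpl39 (0.79) and Mrpl48 (0.68). Among 21 regulators of mitochondrial gene expression and biogenesis, 3 were higher (14.3%; Gabpa 0.69, Polg2 0.67, Ssbp1 0.25) and 4 lower (19.0%), among them Myc (-1.38) and Mterf3 (-0.75). By edgeR the shares called higher in KO2 thus ran from below to slightly above that of all genes, while 53.9% of the members were higher. Between the lines, the mitochondrial ribosome had 39 higher (50.6%) and 3 lower (3.9%), beside 48.7% and 1.32% of the members. The share higher was thus not particular to the members there. Import and cristae had 10 and 3, the TCA cycle list 8 and 4, regulators 5 and 2, assembly factors 7 and 6, and carriers and coenzyme Q genes 3 and 5. The balance moved with the tool. DESeq2 called 3552 of all 13682 tested genes higher in KO2 and 4007 lower. Its counts were 27 higher (35.1%) and 7 lower for the mitochondrial ribosome, 11 and 8 for assembly factors, and 4 and 4 for carriers and coenzyme Q genes. They were 6 and 8 for the TCA cycle list, 7 and 7 for import and cristae, and 3 and 4 for regulators. With limma on FPKM, which called 19.1% of all genes higher and 34.4% lower, the counts were 9 higher and 14 lower for assembly factors, 1 and 7 for carriers and coenzyme Q genes, 4 and 8 for the TCA cycle list, 5 and 8 for import and cristae, 18 and 11 for the mitochondrial ribosome and 2 and 8 for regulators.

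In KO1, where 15.6% of all genes were called higher and 14.9% lower, there were 5 higher and 4 lower among assembly factors, 1 and 2 among carriers and coenzyme Q genes, 1 and 7 in the TCA cycle list, 0 and 6 in import and cristae, 2 and 11 among mitochondrial ribosome genes, and 0 and 4 among regulators. For these last lists with no higher call by edgeR, import and cristae and the regulators, 1 gene each was higher at an unadjusted p under 0.05, DESeq2 called none and limma called 1 in each. With limma, which called 17.8% of all genes higher in KO1, 9 assembly factors (18.4%) and 3 carrier and coenzyme Q genes (15.8%) were higher. The import receptor subunit Tomm22 had the largest of these changes (-1.44; edgeR adjusted p = 4.21e-07), and the regulator Yy1 was at -0.58 (adjusted p = 0.00022). The 13 subunit genes of mitochondrial DNA were listed in no library, so the nuclear members could not be set beside their mitochondrially encoded partners.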

How the data were processed

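RNA was sequenced from 9 libraries, 3 each of Ctrl, KO1 and KO2, grouped by their titles; the record's design text names the sixth and ninth samples differently. HISAT, RSEM, mm10 and GRCm38 are named in the submitters' processing notes, with no version. Each deposited table holds an expected count per gene, an estimated count that was not normalised, and FPKM, in which the authors divided by length and depth; per the file headers they also give the transcript length. Genes under 0.01 FPKM are not listed and were taken as 0. Between 74.7% and 75.8% of the listed expected counts per library were whole, and all were rounded for the tests. The members and lists were chosen with earlier results of these data known, and earlier work described these libraries.

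All genes were fitted with edgeR 4.0.16 in R 4.3.3 (filterByExpr, TMM, robust quasi-likelihood F test, 3 groups in 1 fit, 6 residual degrees of freedom), which left 13682 genes and a common biological coefficient of variation of 11.1%. P-values were adjusted over all tested genes by Benjamini and Hochberg. SEs were back-calculated from the F statistic and are approximate. Alternatives used DESeq2 1.42.0, limma 3.58.1 on log2(FPKM + 1) and log2(FPKM + 0.1), other scalings and filters, and each library left out. The steps were tested on simulated data. Named in detail were isoform pairs and paralogues, SDH and core complex I subunits, the 6 largest called changes per direction and contrast with at least 5 CPM, the 3 members per complex with the highest FPKM, and up to 3 called genes per list and direction; others were described by counts, and 1 gene is not reported here. Positions are from RefSeq (GRCm38.p6), where all 82 members were matched by identifier.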

Additional observations from a re-analysis of the deposited data

Results flagged for a closer look

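The lines differed from each other in 38 of 76 tested members by the direct comparison of KO2 with KO1 (edgeR adjusted p under 0.05). Of all genes tested 55.0% were called, and by direction the members were 48.7% higher and 1.32% lower beside 25.5% and 29.5% of all genes. In either direction together, the members' share is thus no larger than that of all genes. The members are given as log2 differences, KO2 minus KO1. In complex I they were Ndufa8 (0.83), Ndufs6 (0.77), Ndufb9 (0.71), Ndufb2 (0.58), Ndufb7 (0.49), Ndufs8 (0.49), Ndufa2 (0.48), Ndufb3 (0.46), Ndufs3 (0.41), Ndufa11 (0.35), Ndufa5 (0.31), Ndufv1 (0.30), Ndufa12 (0.29), Ndufb5 (0.27) and Ndufa9 (0.26), with Ndufb4 at -0.30. In complex II they were Sdha (0.42) and Sdhc (0.38). Complex III had Uqcrq (0.59), Uqcr11 (0.45), Uqcrfs1 (0.41), Uqcr10 (0.39) and Uqcrc2 (0.22). Complex IV had Cox7c (0.80), Cox7a2 (0.65), Cox6b1 (0.63), Cox8a (0.38), Cox7a2l (0.30) and Cox5b (0.25). Complex V had Atp5j (1.40), Atp5c1 (0.61), Atp5a1 (0.50), Atp5k (0.49), Atp5g3 (0.48), Atp5g1 (0.44), Atp5e (0.41), Atp5l (0.38) and Atp5d (0.37). Of the 37 higher in KO2, 25 were called with each of the 9 libraries left out in turn. Ndufv1, Ndufa12, Ndufa5, Ndufa9, Cox6b1, Uqcrq, Uqcrfs1 and Uqcrc2 differed between the lines although none of these 8 was called in KO2 against Ctrl.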

How the results depend on the processing

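No member called in any comparison reversed its direction under an alternative. Over part of the member results, settings other than leaving out a library kept 1506 calls or non-calls, with 87 calls lost and 27 gained. Leaving out a library kept 1310 in that part, with 122 lost and 26 gained. These counts do not cover all 76 tested members, so calls gained by the members not covered are missing from them. In KO1 the members higher, 2 as reported, were 4 with total count scaling, 5 with limma on either FPKM scale, 0 with only the 2 groups compared, 0 at an adjusted p of 0.01 and 0 at a minimum of 1.5-fold; the members lower, 8 as reported, were 4 with only the 2 groups compared, 2 at 0.01 and 0 at 1.5-fold. In KO2 the 41 higher became 24 at 0.01 and 6 at 1.5-fold, and the 2 lower became 4 with total count scaling, 5 with either limma fit, 0 at 0.01 and 0 at 1.5-fold. Between the lines the 37 higher became 24 and 9, and the 1 lower became 3 with total count scaling, 3 with limma and 0 at 1.5-fold. Leaving out a library gave 0 to 4 higher and 3 to 12 lower in KO1, 29 to 45 and 1 to 2 in KO2, and 28 to 52 and 1 to 1 between the lines. The cause of these changes was not tested beyond the fewer samples, stricter thresholds and scaling that define them.

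Total count scaling moved the median of all genes from -0.02 to -0.13 between the lines, and the members stayed 0.29 above it. The complex I median in KO2 was 0.07 with total count scaling and 0.08 with either limma fit, that of complex II 0.22 with total count scaling, 0.22 with limma on log2(FPKM + 1) and 0.23 with the smaller pseudocount. Between the lines these were 0.09, 0.08 and 0.08 for complex I and 0.22, 0.23 and 0.24 for complex II. With the chromosome median subtracted, chosen after seeing the data, the medians were 0.22 (complex I) and 0.43 (complex II) in KO2, and 0.40 (complex II) and 0.22 (complex V) between the lines. Leaving out a library gave -0.12 to -0.01 for complex I and -0.08 to 0.11 for complex II in KO1, 0.24 to 0.36 for complex II in KO2, and 0.16 to 0.29 for complex I and 0.22 to 0.48 for complex II between the lines.

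The replicate numbers did not pair the samples, with correlations of the deviations of same-numbered libraries from -0.34 to 0.05. With the replicate block, KO1 had 1 higher and 5 lower member, KO2 36 and 2, and the lines differed in 36 and 1. At this depth the 6 members left out by the filter on low counts, with at most 18 expected counts in any library, were not tested.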
